A study of Mus musculus with 8 samples.

Results

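The tuft cell markers examined here were 10 mouse genes, taken by symbol from the 56980 genes counted in jejunal mucosa: Pou2f3, Gfi1b, Trpm5, Il17rb, Il25, Alox5, Ptgs1, Dclk1, Avil and Sh2d6. They were chosen by name, with earlier results of these data known. All 10 were matched, and 8 of them had enough reads to be tested for a difference between genotypes. The tissue was jejunal mucosa scraped from male mice, and the compared groups were 4 FFA2 fl/fl controls and 4 Adipoq-F2-KO mice. Both groups carried floxed alleles of FFA2, the short-chain fatty acid receptor encoded by Ffar2, and the Adipoq-F2-KO group also carried a Cre recombinase driven by the adiponectin promoter, which is active in adipocytes. Every mouse received chow until 12 weeks of age, then a Western diet containing 10% fructooligosaccharides (FOS) for 2 weeks in thermoneutral housing, without antibiotics. The paper states that both genotypes shared cages from birth until 12 weeks of age.

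Tuft cells are scattered chemosensory cells of the intestinal epithelium. They read the luminal content through a taste-like signalling chain that ends in the cation channel TRPM5, and they are a main epithelial source of the cytokine IL-25. IL-25 acts on innate lymphoid cells, whose IL-13 in turn drives tuft and goblet cell numbers up, a loop known from infections with worms and protists and from exposure to microbial succinate. Tuft cells also make leukotrienes and prostaglandins from arachidonic acid, and the transcription factor POU2F3 is required for their formation.

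Total counts per library ranged from 6007654 to 21712776, and 5 of the 8 libraries held at least 10000000 counts (FFA2 fl/fl 1, 2 and 4, and Adipoq-F2-KO 1 and 2). The targeted gene, Ffar2, was at 4.18 to 9.49 normalized counts in the controls and at 5.64 to 12.0 in Adipoq-F2-KO mice, from 2 to 18 reads per library. A mucosal library does not check a deletion made in adipocytes. A normalized count is the number of reads of a gene after scaling by the library's size factor from DESeq2. The labelled tissue held its defining epithelial genes, with Epcam at a mean of 7214 and Vil1 at 10131 normalized counts per kilobase of exon. The libraries differed in smooth muscle genes, which are not part of the mucosal epithelium: the summed normalized counts of 12 such genes, all of them detected, ran from 3823 to 33624 in the controls and from 4214 to 13719 in Adipoq-F2-KO mice. In bulk tissue, fewer cells of a type and less RNA per cell cannot be told apart.

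No tested tuft cell marker differed between the genotypes beyond the spread between mice. With DESeq2, 0 of 8 tested markers passed an adjusted p below 0.05, where 0.0375% of all 15986 tested genes did, and 0 of 8 had an unadjusted p below 0.05, where 3.03% of all genes did. With edgeR's quasi-likelihood test the counts were 0 of 8 at both thresholds, against 0.0125% and 3.48% of all genes, and with limma-voom they were 0 of 8 at both, against 0.00626% and 4.3%. No marker separated the genotypes completely, where 2.12% of all tested genes had no overlap in normalized counts. Of the 8 markers, 4 had a higher and 4 a lower fitted mean in Adipoq-F2-KO mice, with log2 fold changes from -0.16 to 0.16. Their median was 0.01, against -0.01 over all tested genes, and their median standard error (SE) was 0.26, against 0.24. A p that misses the threshold does not show equal levels, so the interval of each difference is given with the values below. All fold changes are Adipoq-F2-KO over FFA2 fl/fl, and the adjusted p was 0.9998 for each of the 8 tested markers (DESeq2).

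**Figure D1:**
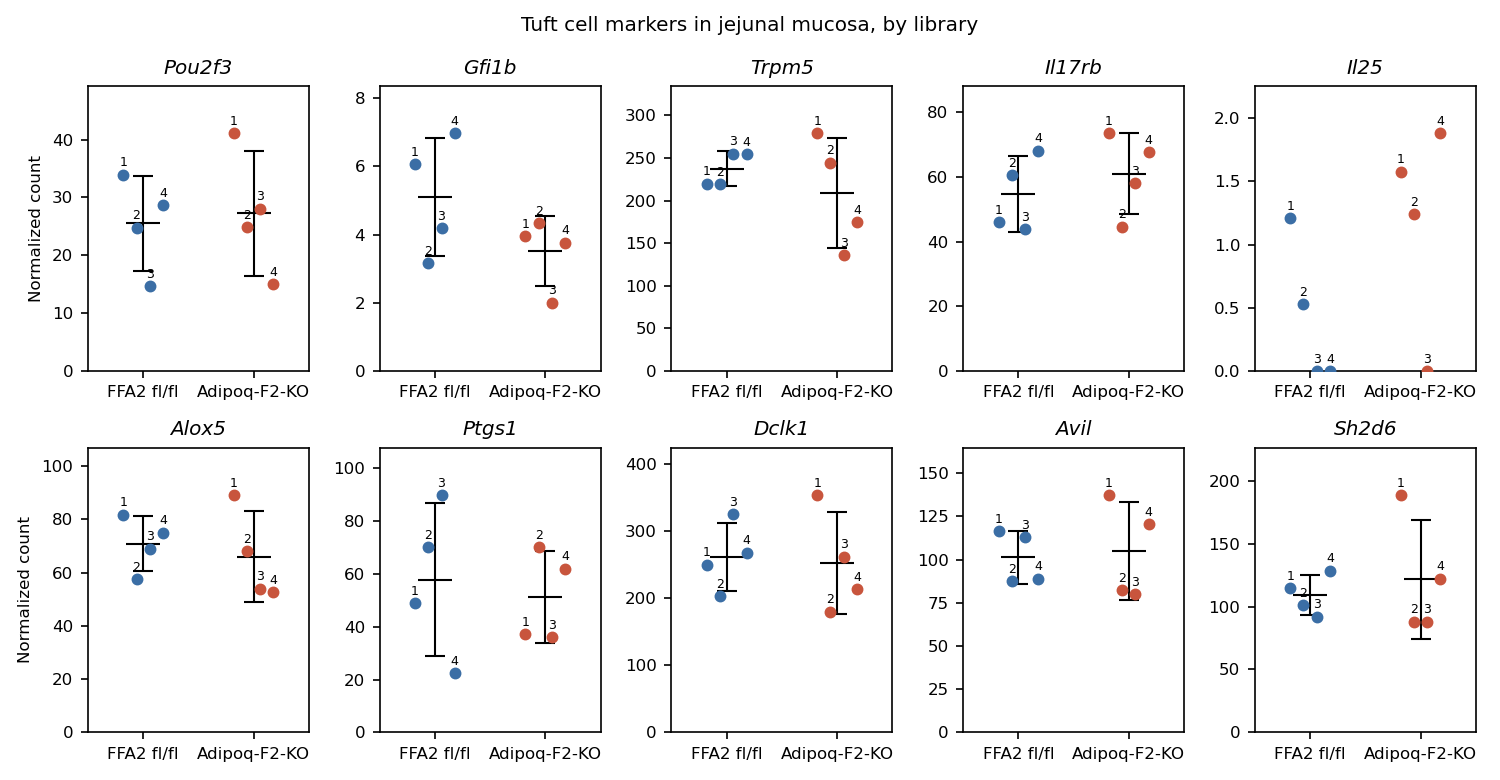
Normalized counts (vertical axes, each from 0) of the 10 markers in the 4 FFA2 fl/fl and 4 Adipoq-F2-KO libraries, with library numbers beside the points and horizontal bars and whiskers for the mean ± SD, left out for Il25, which had at most 2 reads per library. The genotypes overlap for all 10 genes, and Adipoq-F2-KO library 1 is the highest point for Pou2f3, Trpm5, Il17rb, Alox5, Dclk1, Avil and Sh2d6.

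The promoter windows below are the 250 bases before the RefSeq start site on GRCm38.p6, printed 5′ to 3′ on the strand of the gene. They belong to Avil, Sh2d6 and Alox5, a choice made after the marker values were seen. By Pearson's r these 3 markers followed the mean of the other markers most closely across libraries. By Spearman's rho Trpm5 (0.57) came before Sh2d6 (0.48). Capitals mark the letters ATGCAAA on either strand, the core of the octamer bound by POU factors.

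Avil (chr10:127000459-127000708, plus strand): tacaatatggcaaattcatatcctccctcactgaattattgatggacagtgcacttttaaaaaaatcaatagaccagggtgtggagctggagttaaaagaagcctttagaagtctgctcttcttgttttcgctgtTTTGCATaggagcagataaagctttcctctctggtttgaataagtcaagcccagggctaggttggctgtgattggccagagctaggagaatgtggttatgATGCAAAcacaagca
Sh2d6 (chr6:72520037-72520286, minus strand): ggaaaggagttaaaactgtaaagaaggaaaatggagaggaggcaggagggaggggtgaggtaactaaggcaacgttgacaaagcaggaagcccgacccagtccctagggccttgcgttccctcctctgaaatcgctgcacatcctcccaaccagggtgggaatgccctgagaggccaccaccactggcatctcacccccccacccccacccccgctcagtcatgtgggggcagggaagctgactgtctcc
Alox5 (chr6:116461179-116461428, minus strand): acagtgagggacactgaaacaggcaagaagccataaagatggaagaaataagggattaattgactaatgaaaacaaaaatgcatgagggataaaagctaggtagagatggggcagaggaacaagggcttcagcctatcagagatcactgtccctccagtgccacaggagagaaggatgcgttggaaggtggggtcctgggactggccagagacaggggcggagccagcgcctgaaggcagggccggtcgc

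RefSeq windows were found for 8 of the 10 markers, 9 windows in all because Dclk1 has 2 start sites, and none was found for Il25 and Pou2f3. Of these 9 windows only that of Avil held ATGCAAA, with 1 match on each strand, 115 and 15 bases before the start site. Among all 32851 windows of the same length, 4.12% held it. The full octamer ATGCAAAT, which contains those letters, was in 0 of the 9 windows and in 1.6% of all windows. A match of letters is not a binding site, and its lack in a window says nothing about the factor.

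Pou2f3 (ENSMUSG00000032015), the factor that specifies tuft cells, was detected at low level in all libraries. Its normalized counts were 33.9, 24.8, 14.6 and 28.6 in FFA2 fl/fl mice 1 to 4 and 41.0, 24.8, 28.0 and 15.04 in Adipoq-F2-KO mice 1 to 4, from 7 to 56 reads per library. Each genotype had 1 library near 15 and the others between 24 and 42, so the groups overlapped throughout. The group means were 25.5 ± 8.15 and 27.2 ± 10.7 (SD, n = 4 each). The log2 fold change was 0.08 with an SE of 0.40 and a 95% interval from -0.69 to 0.86, which spans 0.619-fold to 1.81-fold.

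Gfi1b (ENSMUSG00000026815), a transcriptional repressor present in tuft cells and also in erythroid cells and platelets, was close to the detection floor of 3 reads. It had 10, 6, 2 and 9 reads in the controls and 5, 7, 1 and 2 in Adipoq-F2-KO mice, 42 reads in all. It did not reach the read minimum of the gene-wide fit (10 reads in at least 4 libraries). The means were 5.09 ± 1.73 and 3.51 ± 1.04 normalized counts (SD, n = 4 each). On the log2(normalized count + 1) scale the Adipoq-F2-KO mean was lower by a difference of -0.42, which an exact permutation test (two-sided, 70 regroupings, smallest possible p 0.0286) did not separate from 0 (p = 0.229). The summed level of 8 platelet and erythroid genes was 63.5 to 78.0 in the controls and 47.4 to 79.0 in Adipoq-F2-KO mice, and its part in the Gfi1b values was not tested.

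Trpm5 (ENSMUSG00000009246) encodes the calcium-activated channel at the end of the taste-like chain. The 4 control libraries lay close together, at 219.9, 219, 255 and 255 normalized counts. The Adipoq-F2-KO libraries were spread more widely, at 279, 244, 136 and 175, with 1 of them above the control range, 1 within it and 2 below it. The means were 237 ± 20.4 and 208 ± 64.7 (SD, n = 4 each). The log2 fold change was -0.16 (SE 0.22, 95% interval -0.59 to 0.27), or 0.664-fold to 1.21-fold.

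Il17rb (ENSMUSG00000015966), a subunit of the IL-25 receptor that is found on tuft cells and on the lymphoid cells that answer them, ran the other way without a difference beyond the spread. Its normalized counts were 46.0, 60.6, 43.9 and 68.1 in the controls and 73.4, 44.6, 58.1 and 67.7 in Adipoq-F2-KO mice. Both genotypes had libraries near 45 and near 68. The means were 54.7 ± 11.6 and 60.9 ± 12.6 (SD, n = 4 each), with a log2 fold change of 0.13 (SE 0.27, 95% interval -0.40 to 0.66).

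Il25 (ENSMUSG00000040770), the ligand of that receptor and the signature cytokine of tuft cells, was at or under the floor everywhere. It had 2, 1, 0 and 0 reads in the controls and 2, 2, 0 and 1 in Adipoq-F2-KO mice, 8 reads among 108278904. A count of 0 allows up to 3 reads, so levels in the genotypes could not be told apart at this depth and no fold change is given.

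Of the eicosanoid enzymes, Alox5 and Ptgs1 behaved differently across libraries. Alox5 (ENSMUSG00000025701), the 5-lipoxygenase that starts leukotriene synthesis in tuft cells and in leukocytes, was at 81.8, 57.5, 69.0 and 75.1 normalized counts in the controls and at 89.2, 68.2, 54.1 and 52.6 in Adipoq-F2-KO mice. The Adipoq-F2-KO group held both the highest and the lowest library. The means were 70.8 ± 10.3 and 66.0 ± 17.0 (SD, n = 4 each) and the log2 fold change was -0.07 (SE 0.25, 95% interval -0.56 to 0.43). Ptgs1 (ENSMUSG00000047250), the constitutive cyclooxygenase of prostaglandin synthesis, was at 49.1, 70.1, 89.9 and 22.4 in the controls and at 37.1, 70.1, 36.0 and 62.0 in Adipoq-F2-KO mice. The controls alone spanned the whole range of the 8 libraries. The means were 57.9 ± 28.9 and 51.3 ± 17.3 (SD, n = 4 each), and the log2 fold change of -0.14 had the widest interval of the 8 markers (SE 0.42, 95% interval -0.96 to 0.68).

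Dclk1, Avil and Sh2d6 mark tuft cells through structural and signalling proteins. Dclk1 (ENSMUSG00000027797), a microtubule-associated kinase and the marker most used to stain these cells, was at 250.2, 203, 326 and 269 normalized counts in the controls and at 354, 180.4, 262 and 214 in Adipoq-F2-KO mice. The extremes of all 8 libraries were both Adipoq-F2-KO. The means were 262 ± 50.8 and 253 ± 75.6 (SD, n = 4 each) and the log2 fold change was -0.04 (SE 0.23, 95% interval -0.50 to 0.42), or 0.707-fold to 1.34-fold. In the GENCODE M21 annotation Dclk1 overlaps 4 genes on its own strand and 2 on the opposite strand, and how many of its reads they share was not tested. Trpm5, Il17rb, Avil and Ptgs1 each overlap 1 gene on the opposite strand, and the strand setting of the counting is not given in the sources used here.

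Avil (ENSMUSG00000025432), the actin-binding protein advillin of the apical tuft, was at 116, 87.5, 113 and 89.0 normalized counts in the controls and at 137, 82.5, 80.1 and 120.3 in Adipoq-F2-KO mice. In both groups 2 libraries lay below 90 and 2 above 110, and the means were 101.4 ± 15.3 and 105 ± 28.3 (SD, n = 4 each). The log2 fold change was 0.06 (SE 0.24, 95% interval -0.40 to 0.53). Sh2d6 (ENSMUSG00000052631), an SH2-domain adaptor, was at 114.5, 101.2, 92.0 and 128 in the controls and at 189, 88.0, 88.1 and 122 in Adipoq-F2-KO mice. One Adipoq-F2-KO library stood well above the other 7, 1 of the others lay within the control range and 2 just below it. The means were 109 ± 15.9 and 122 ± 47.4 (SD, n = 4 each), with a log2 fold change of 0.16 (SE 0.28, 95% interval -0.38 to 0.70).

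**Figure D2:**
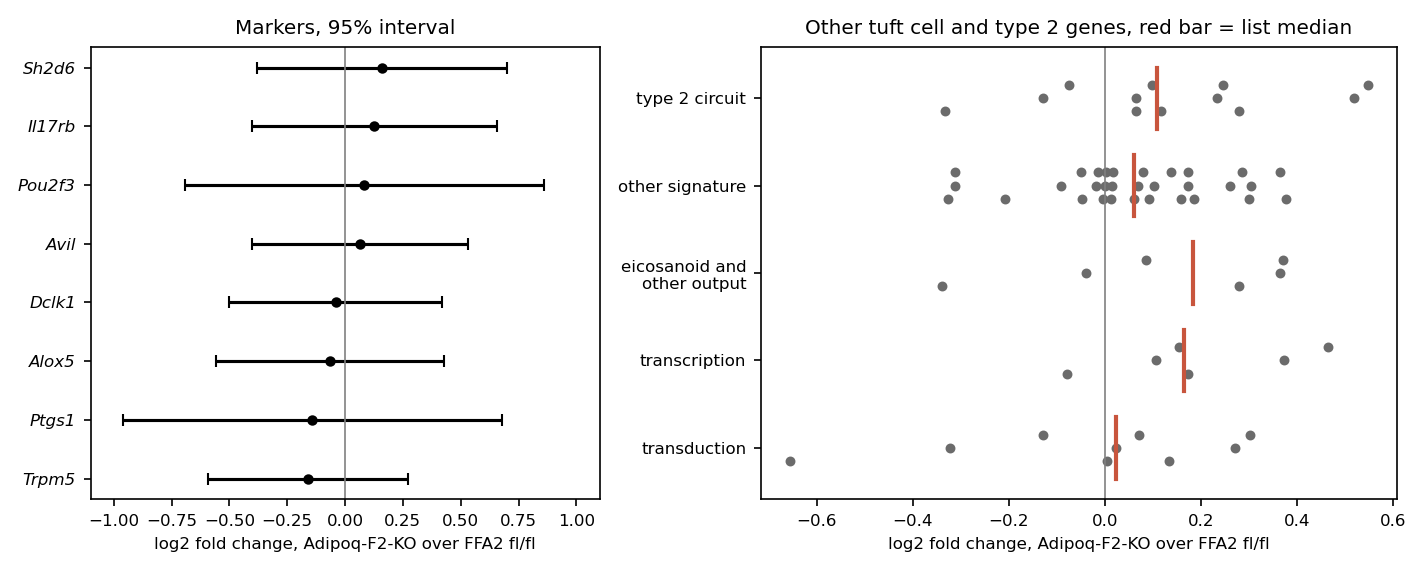
Log2 fold changes of Adipoq-F2-KO over FFA2 fl/fl (horizontal axes, 0 marked). The left panel gives the 8 tested markers with 95% intervals, all of which cross 0; the right panel gives the 64 tested genes of the wider tuft cell and type 2 lists as points, with a red bar at each list's median, between 0.02 and 0.18.

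Levels can be compared between the markers only per length. Per kilobase of exon, averaged over the 8 libraries, Sh2d6 was the most abundant at 68.3 ± 19.8 normalized counts per kilobase (SD, n = 8 here and in this paragraph). Trpm5 at 34.8 ± 7.35 and Avil at 30.4 ± 6.23 came next and overlapped each other but not Sh2d6. Dclk1 at 16.8 ± 3.91, Alox5 at 16.7 ± 3.23, Il17rb at 15.6 ± 3.16 and Ptgs1 at 14.1 ± 5.76 could not be ordered beyond their spread. The lowest Trpm5 library, at 21.3, lay below the highest Dclk1 library, at 23.2, whereas every Avil library lay above all of these 4 genes. Pou2f3 followed at 8.54 ± 2.87 and overlapped those 4 at its top, Gfi1b stood at 2.35 ± 0.857 below every Pou2f3 library, and Il25 was listed last at 0.756. The lengths are those of all annotated exons merged, 15296 bases for Dclk1, so a gene with many alternative exons is placed too low.

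**Figure D3:**
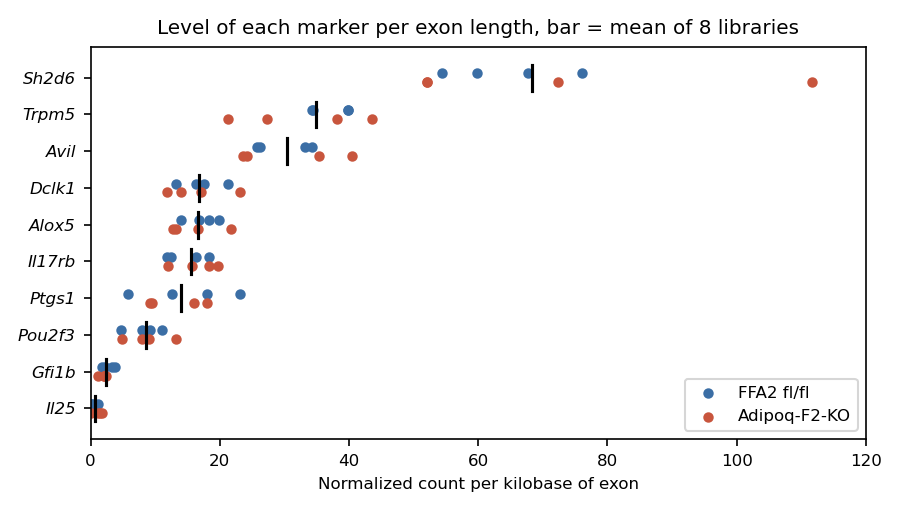
Normalized counts per kilobase of merged exon (horizontal axis, linear from 0) of the 10 markers, ordered by their mean over 8 libraries (black bar), with 1 point per library coloured by genotype. Sh2d6 lies above 52 in every library, Trpm5 and Avil between 21 and 44, and the other 7 markers below 24.

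Most markers were highest in the same mouse. Adipoq-F2-KO 1 was the highest of the 8 libraries for 7 of the 8 tested markers, all but Ptgs1, which was highest in FFA2 fl/fl 3. The lowest library was FFA2 fl/fl 3 for 2 markers, FFA2 fl/fl 4 for 1, Adipoq-F2-KO 2 for 2, Adipoq-F2-KO 3 for 2 and Adipoq-F2-KO 4 for 1. Averaged over the 8 markers, the log2(normalized count + 1) values centred on each gene's mean were 0.08, -0.04, 0.03 and -0.02 in FFA2 fl/fl 1 to 4 and 0.38, -0.10, -0.24 and -0.08 in Adipoq-F2-KO 1 to 4. The SD of these means was 0.0532 in the controls and 0.270 in Adipoq-F2-KO mice (n = 4 each, a description with no test), and 0.0827 in the other 3 Adipoq-F2-KO mice when Adipoq-F2-KO 1 was left out. Without Adipoq-F2-KO 1 the median log2 fold change of the markers was -0.18 instead of 0.01, the sign of Pou2f3 (-0.20), Avil (-0.11) and Sh2d6 (-0.16) turned, and 0 of 8 markers passed an adjusted p below 0.05 (DESeq2).

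In the wider tuft cell lists, 2 libraries were tied for the most highest values. Among 52 tested genes of 4 tuft cell lists that exclude the markers, 13 (25%) were highest in Adipoq-F2-KO 1 and another 13 in FFA2 fl/fl 3, the library with the fewest reads. Among all tested genes 10.2% were highest in Adipoq-F2-KO 1 and 19.6% in FFA2 fl/fl 3. In the list of other signature genes the counts for Adipoq-F2-KO 1 and FFA2 fl/fl 3 were 9 and 8 of 31, in the transduction list 2 and 3 of 9, in the transcription list 2 and 2 of 6, and in the list of eicosanoid and other output genes 0 and 0 of 6. Over these 52 genes the other 6 libraries were highest for 0 to 9 genes each.

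**Figure D4:**
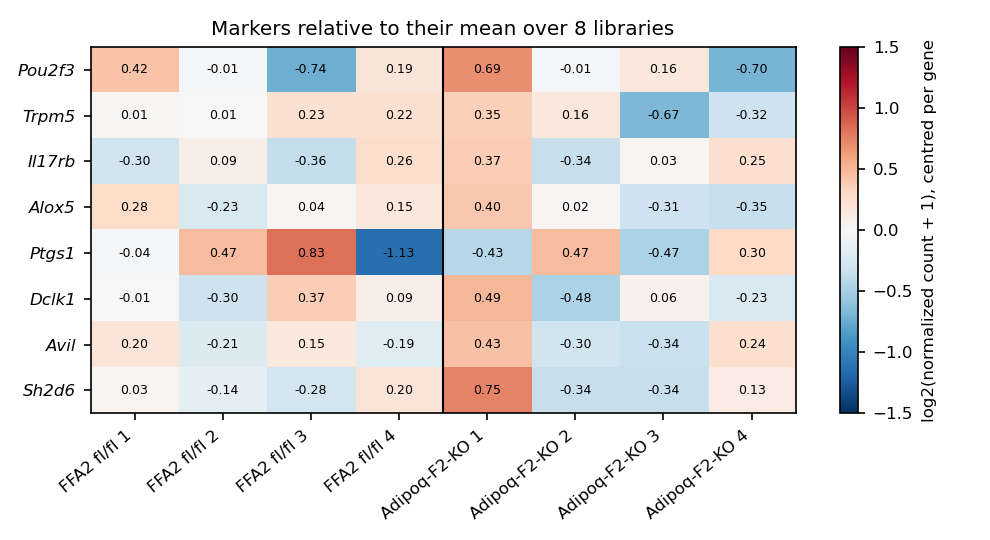
log2(normalized count + 1) of the 8 tested markers (rows) in the 8 libraries (columns), centred on each gene's mean, with red for above and blue for below the mean and the value printed in each cell. The Adipoq-F2-KO 1 column is above the mean for 7 markers and below it for Ptgs1.

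Across the 8 libraries each marker was compared with the mean of the other 7 as a description, since they share libraries and depth. Adipoq-F2-KO 1 was the highest library for 7 of the 8 markers, so 1 mouse weighs on the correlations in this paragraph. They were not computed without it. Alox5 (Pearson's r = 0.72, Spearman's rho = 0.67), Sh2d6 (r = 0.72, rho = 0.48), Avil (r = 0.68, rho = 0.64), Trpm5 (r = 0.56, rho = 0.57) and Dclk1 (r = 0.46, rho = 0.36) ran with the others. Pou2f3 (r = 0.13, rho = 0.10) and Il17rb (r = 0.07, rho = 0.10) did so little, and Ptgs1 ran against them (r = -0.49, rho = -0.24). Among 10218 other genes with a mean of at least 50 normalized counts, the 10 whose profile was most like the mean of the 8 markers over the 8 libraries were Gm28536, Yod1, Wipf2, Golph3, Map3k7, Maff, Gm43788, Esyt2, Zc3h7a and Nup88, with r from 0.90 to 0.95. None of these is in the tuft cell lists. Of 45 genes of the wider tuft cell and type 2 lists in that comparison, 8 (17.8%) had r above 0.5, against 10.3% of all candidates.

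Among the 8 markers, Pou2f3 was related to the smooth muscle genes of the library. Ptgs1 leaned in the opposite direction without passing after adjustment. The relation was looked for after the library values had been seen, over 8 markers. The smooth muscle score is the mean centred log2 value of the 12 smooth muscle genes. It was -2.35, 0.86, 3.15 and -2.43 in FFA2 fl/fl 1 to 4. In Adipoq-F2-KO 1 to 4 it was -1.64, 0.78, -0.03 and 1.66. Other lists varied over the same libraries. Of 6 tested fibroblast genes, 5 were highest in FFA2 fl/fl 3 and 5 lowest in FFA2 fl/fl 4. The same counts held for 6 tested stem and crypt genes. Among all tested genes the shares were 19.6% and 14.5%. How many of all tested genes follow the score as closely as Pou2f3 was not counted. Pou2f3 was lower where the score was higher (Pearson's r = -0.87, exact permutation p = 0.00432, Benjamini-Hochberg (BH) adjusted over 8 markers 0.0345). Its rank correlation was alike (Spearman's rho = -0.90, exact permutation p = 0.00456, BH-adjusted 0.0365). Without FFA2 fl/fl 3 and 4, the 2 libraries farthest from the median score, r was -0.88. The 2 lowest Pou2f3 values, in FFA2 fl/fl 3 and Adipoq-F2-KO 4, rest on 7 and 8 reads. In the 5 libraries of at least 10000000 counts, too few for a test, r was -0.69. There Pou2f3 was at 28.6 to 41.0 normalized counts in the 3 libraries with a score below 0 and at 24.8 in both others.

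For Ptgs1 the correlation was positive and did not pass after adjustment (r = 0.82, exact permutation p = 0.0141, BH-adjusted 0.0565). Spearman's rho was 0.83 (exact permutation p = 0.0154, BH-adjusted 0.0615), and r was 0.63 without the 2 farthest libraries. For the other 6 markers r lay between -0.60 and -0.06, with BH-adjusted exact permutation p-values from 0.315 to 0.898. Without the 2 farthest libraries r was -0.84 for Alox5 and -0.70 for Dclk1, and in the 5 libraries of at least 10000000 counts it was -0.79 and -0.74, so the relation was not shown to be particular to Pou2f3. With both measures centred within genotype and the score permuted within genotype, a check added after seeing the data, r was -0.88 for Pou2f3 (exact permutation p = 0.00347, BH-adjusted over 8 markers 0.0278) and 0.83 for Ptgs1 (exact permutation p = 0.0365, BH-adjusted 0.146). With the score as a covariate in DESeq2, the log2 fold change between genotypes was 0.21 for Pou2f3 and -0.17 for Ptgs1, and neither passed (adjusted p = 1.00).

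**Figure D5:**
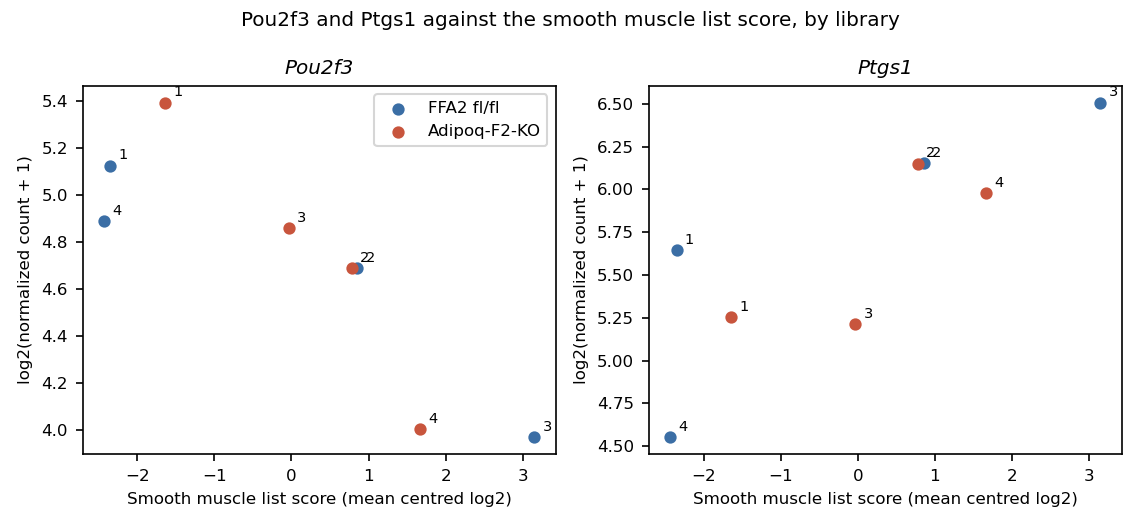
log2(normalized count + 1) of Pou2f3 (left) and Ptgs1 (right) against the smooth muscle list score (horizontal axes, mean centred log2), 1 point per library with its number and its genotype by colour. Pearson's r is -0.87 for Pou2f3 and 0.82 for Ptgs1, and both genotypes are spread along the axis.

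Markers of other cells that express some of these genes were looked at in the same libraries. Mast cell genes summed to 122 to 251 normalized counts in the controls and 152 to 254 in Adipoq-F2-KO mice. Of these 9 genes, Cma1 and Tpsab1 were at 0 in every library and 5 never exceeded 3 reads. Granulocyte genes, whose cells use Alox5, summed to 7.88 to 14.8 and 3.95 to 13.2, with S100a8 at 0 in every library and 6 of 8 genes never above 3 reads. Macrophage genes summed to 221 to 610 in the controls and 425 to 793 in Adipoq-F2-KO mice, with a median log2 fold change of 0.54 (median SE 0.43) over 10 tested genes, of which 0 passed an adjusted p below 0.05 and 1 had an unadjusted p below 0.05 (DESeq2). The median was 0.71 over 9 B and plasma cell genes (0 passed, 0 below 0.05 unadjusted), 0.23 over 10 T cell and intraepithelial lymphocyte genes (0 passed, 1 below 0.05 unadjusted) and -0.91 over the 12 smooth muscle genes (0 passed, 0 below 0.05 unadjusted). Over all tested genes 3.03% had an unadjusted p below 0.05 (DESeq2). Of the 9 B and plasma cell genes, 1 had no overlap between genotypes, against 2.12% of all tested genes. The part of these cells in the marker values was not tested beyond the covariate fits. A score of immune genes was -0.68, 0.36, 0.07 and -0.94 in FFA2 fl/fl 1 to 4. It was 0.015, 0.47, 0.32 and 0.39 in Adipoq-F2-KO 1 to 4. Both lowest values were in controls, so this score is partly confounded with genotype. With the score as a covariate, Ptgs1 had a log2 fold change of -0.79 at an unadjusted p of 0.0394 (DESeq2). Ptgs1 was the only marker below 0.05 in any alternative, and its adjusted p was 1.00.

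The rest of the tuft cell programme and the type 2 circuit around it also showed no call. Of 87 genes in 5 lists, 85 were found (Pou2af2 and Pou2af3 were not matched) and 64 were tested. Of these, 44 (68.8%) had a higher and 20 a lower fitted mean in Adipoq-F2-KO mice, against 48.5% higher over all tested genes, and the median log2 fold change was 0.08. With DESeq2, 0 of 64 passed an adjusted p below 0.05 and 2 (3.12%) had an unadjusted p below 0.05, the latter a share near the 3.03% of all tested genes. With edgeR 0 passed and 1 was below 0.05 unadjusted, where 3.48% of all genes were, and with limma-voom 0 passed and 2 were, where 4.3% of all genes were. No gene of the lists separated the genotypes completely, where 2.12% of all tested genes did.

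The 2 genes below the unadjusted threshold with DESeq2 were Runx1 and Il13ra1. Of these edgeR kept Runx1 alone, and limma-voom kept Il13ra1 and added Vav1 (log2 fold change 0.43, unadjusted p = 0.0471, adjusted p = 0.974), a signalling protein of tuft cells and lymphocytes that was named after its value was seen. Runx1, a transcription factor of blood and epithelial lineages, was at 154, 162, 128 and 146 normalized counts in the controls and at 242, 159, 186 and 180.5 in Adipoq-F2-KO mice. Only Adipoq-F2-KO 2 lay within the control range, and the log2 fold change was 0.37 (SE 0.18, 95% interval 0.02 to 0.73, adjusted p = 0.9998, DESeq2). Il13ra1, the IL-13 receptor subunit through which the epithelium answers type 2 lymphoid cells, was at 2639, 2713, 3154 and 2800.0 in the controls and at 3643, 2969.7, 3015 and 3766 in Adipoq-F2-KO mice. The highest control, FFA2 fl/fl 3, exceeded 2 of the 4 Adipoq-F2-KO libraries, and the log2 fold change was 0.25 (SE 0.12, 95% interval 0.02 to 0.47, adjusted p = 0.9998, DESeq2).

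Among the transduction genes, 6 of 9 tested had a higher and 3 a lower fitted mean, with a median log2 fold change of 0.02. The 3 with the highest level per kilobase were Itpr3, the calcium release channel upstream of TRPM5, Atp2a3, a calcium pump, and Trpm4, a related channel. Per kilobase Itpr3 was at 286 and Trpm4 at 225 normalized counts, against 34.8 for Trpm5. Which cells the reads of these 3 genes came from was not tested, so they do not show the level of the chain in tuft cells. Itpr3 ran from 2261 to 3062 normalized counts in the controls and from 2304 to 2821 in Adipoq-F2-KO mice. Atp2a3 ran from 1209 to 1426 and from 1179 to 1419, and Trpm4 from 1978 to 2841 and from 2143 to 2753. The tuft cell G protein subunit Gng13 never exceeded 1 read.

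Among the transcription factors 5 of 6 tested had a higher and 1 a lower fitted mean (median 0.16). Those with the highest level per kilobase were Atoh1 (135 to 232 normalized counts in the controls, 134 to 206 in Adipoq-F2-KO mice), Sox9 (104 to 173 and 109 to 178) and Spib (43.9 to 71.2 and 50.1 to 99.2), all of which also act outside tuft cells. Among eicosanoid and other output genes 4 of 6 tested had a higher and 2 a lower fitted mean (median 0.18). Lta4h, which makes leukotriene B4, ran from 2522 to 2983 and from 2406 to 3022, and which cells its reads came from was not tested. Ltc4s, which makes the cysteinyl leukotriene of the tuft cell response, ran from 35.6 to 92.9 and from 45.1 to 64.5. Alox5ap, the partner protein of Alox5, ran from 6.85 to 14.6 and from 9.40 to 20.0.

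Of the other signature genes, 20 of 31 tested had a higher and 11 a lower fitted mean (median 0.06). Krt18 and Cd24a, which are not limited to tuft cells, ran from 548 to 929 and from 506 to 972 in the controls, and from 661 to 860 and from 527 to 833 in Adipoq-F2-KO mice. Chn2 ran from 560 to 799 and from 577 to 663. For all 3 the Adipoq-F2-KO range lay within the control range.

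In the type 2 circuit, 9 of 12 tested genes had a higher and 3 a lower fitted mean (median 0.11). The cytokines themselves were barely detected: Il13 had 7, 2, 2 and 2 reads in the controls and 1, 1, 1 and 3 in Adipoq-F2-KO mice, Il4 had at most 3 reads and Il5 had 0 in every library. Retnlb, a goblet cell product of the IL-13 response, was also at 0 in every library. Stat6, the transcription factor downstream of the IL-13 receptor, ran from 1618 to 1863 normalized counts in the controls and from 1782 to 1818 in Adipoq-F2-KO mice. Clca1, a goblet cell gene that responds to IL-13, ran from 7578 to 13444 and from 8532 to 11063. In total 6 of the 85 genes, Gng13, Tslp, Il4, Il5, Klrg1 and Retnlb, never exceeded 3 reads in any library, and for these no difference was detectable at this depth.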

How the data were processed

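RNA sequencing was performed on jejunal mucosa of 4 FFA2 fl/fl and 4 Adipoq-F2-KO mice, with groups and replicate numbers from the sample titles. Libraries were made with a stranded poly-A kit and sequenced as single 75 bp reads. The deposited values are raw read counts per Ensembl gene, which the authors made with Trimmomatic, STAR and featureCounts, neither normalized nor pooled. The submitters' processing notes name GRCm38 and mm10. Tool versions, annotation release and strand setting are not given in the sources used here.

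A gene needed 10 or more counts in 4 or more libraries (15986 of 56980 did) and was then tested in DESeq2 1.42.0 (R 4.3.3) with genotype as the only term, two-sided Wald tests and Benjamini-Hochberg adjustment over all tested genes. DESeq2, the authors' own tool, gave the main test. edgeR 4.0.16 and limma 3.58.1 (voom), TMM factors, no filter, a replicate block, smooth muscle or immune scores as covariates, epithelial size factors, only libraries of at least 10000000 counts and leaving out each library were alternatives. The fits were tested on simulated data. Log values used a pseudocount of 1, and 3 reads was the floor. Reads carried no molecular identifiers, so floors cover counting error only. The p-values set a difference against the spread between these libraries, 1 per mouse. Differences between mice and between tissue preparations are not separated in that spread. Exon lengths and overlaps came from GENCODE M21 and promoter windows from RefSeq (GRCm38.p6).

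The markers and lists were chosen with earlier results of these data known. The text names all 10 markers, in each wider list the genes of smallest unadjusted p (below 0.05, 3 at most) and the 3 with the highest level per kilobase, and the 10 genes most like the markers' mean profile. Vav1 and the genes at or near 0 reads fall outside this rule and were named after their values were seen.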

Additional observations from a re-analysis of the deposited data

How the results depend on the processing

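No marker passed an adjusted p below 0.05 in any of 136 fits (8 markers under 17 alternatives), and the median log2 fold change of the markers stayed between -0.18 and 0.18. The number of all tested genes with an adjusted p below 0.05, 6 with DESeq2, was 2 with edgeR, 1 with limma-voom, 3 with no filter on low counts, 2 with the immune score, 3 with epithelial size factors and 78 with the 5 libraries of at least 10000000 counts. It ran from 2 to 103 when 1 library was left out, with 103 without FFA2 fl/fl 3 and 23 without FFA2 fl/fl 2, and none of these genes was a marker. With the replicate number as a block it was 11. Same-numbered libraries deviated together with correlations of 0.54, 0.29, 0.01 and -0.42, so the numbers were not taken to pair the mice, and the best partner had the same number for libraries 1 and 2 but not for 3 and 4.

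The signs of small fold changes turned. Ptgs1 was at 0.051 with limma-voom and 0.18 in those 5 deeper libraries alone, where Dclk1 was at 0.15, Trpm5 at 0.17 and Alox5 at 0.13. With the immune score, which is partly confounded with genotype, Dclk1 was at 0.12 and Alox5 at 0.19. In that fit, without a change of sign, Pou2f3 was at 0.44, Sh2d6 at 0.44 and Ptgs1 at -0.79. With epithelial size factors, which moved the median of all genes to -0.07, Pou2f3 was at -0.0049 and Avil at -0.0067. Leaving out 1 library gave ranges of -0.26 to 0.10 for Dclk1, -0.20 to 0.25 for Pou2f3, -0.11 to 0.18 for Avil, -0.16 to 0.30 for Sh2d6, -0.25 to 0.017 for Alox5 and -0.40 to 0.12 for Ptgs1, and without a change of sign -0.32 to -0.0047 for Trpm5 and 0.0071 to 0.27 for Il17rb. The cause was not tested.

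The Gfi1b difference ran from -0.59 to -0.24 (exact permutation p from 0.0857 to 0.457). With TMM factors or 1 library left out, all added for the correlations after seeing the data, r with the smooth muscle score ran from -0.92 to -0.79 for Pou2f3 and from 0.74 to 0.92 for Ptgs1, the lowest without FFA2 fl/fl 3 (exact permutation p = 0.0609). Depth limits Il25 and Gfi1b among the markers, and the 3 libraries under 10000000 counts.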
